A study of Mus musculus with 12 samples.

Results

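A set of 10 plasma-protein genes of the acute phase and of complement was followed in mouse myoblasts after silencing of *Zbed6*, whose product is a transcription factor domesticated from a transposon. They are *Lbp*, *Saa3*, *C3*, *C4b*, *Lcn2*, *Hp*, *Clu*, *Kng1*, *Serping1* and *Cp*, and every array probe that carries one of these symbols was taken on its own. Of the 10 genes, 9 have a probe on the array (13 probes of 25697, which cover 16593 gene symbols), and *C3* has none. A probe was kept for the comparisons if its signal exceeded that of the negative control beads (detection p under 0.05) on at least 3 of the 12 arrays. That left 8 probes of 7 genes, out of 13095 kept probes in all, and 5 probes at or near background, among them the only probes of *Saa3* and *Lcn2*. The genes were chosen by their roles and with their silencing differences on these same arrays (silenced minus control signal at 48 h and 96 h) in view, so those differences between silenced and control cells are given as descriptions with no test.

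The cells were C2C12, a mouse myoblast line that fuses into myotubes on differentiation, kept here in serum-rich growth medium and reverse transfected with a pool of siRNAs. The 4 groups were cells given siRNA against *Zbed6* for 48 h, cells given a negative control siRNA for 48 h, and the same treatments for 96 h, each with 3 biological replicates on 1 Illumina MouseRef-8 v2 BeadChip array each. The array carries no probe named for *Zbed6* among those used here, so the silencing itself was not measured on these arrays. The study checked it by quantitative PCR and western blotting in the same siRNA experiment. Since the RNA came from whole cultures, fewer cells expressing a gene and less RNA of it per cell cannot be told apart.

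Acute-phase proteins are plasma proteins whose synthesis, mostly in liver, changes during infection or injury under the control of interleukin 6, interleukin 1 and the transcription factors STAT3, C/EBP and NF-kB. Complement is the cascade of plasma proteases and their inhibitors that marks microbes and damaged cells for removal. Muscle cells and fibroblasts also make several of these proteins, and cultured myoblasts respond to bacterial lipopolysaccharide and to cytokines of the interleukin 6 family.

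Signals are given as background-corrected, quantile-normalized log2 values, so a difference of 1 is a doubling. The lowest log2 signal that counted as detected lay between 5.26 and 5.39 across the arrays, and values at or below that range are close to background. Per array, 47.0% to 48.9% of probes were detected, the median raw intensity was 76.5 to 90.8, and arrays of the same group correlated at 0.9925 to 0.9960. Precision is limited by 3 arrays per group.

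Averaged over both treatments, *Lbp*, *Kng1* (1 probe) and *Cp* were higher at 96 h than at 48 h, and at 96 h all 3 lay lower in silenced cells than in control cells. *Clu* lay lower in silenced cells at both times, where it was not above background. *Serping1* lay lower in silenced cells at 48 h, whereas its groups overlapped at 96 h. *C4b* lay lower in silenced cells at 48 h by 0.16 and its groups overlapped at 96 h, and those of *Hp*, near background, overlapped at both times. *Saa3* and *Lcn2* were at background throughout. The plot of signal by array shows all 8 kept probes.

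**Figure D1:**
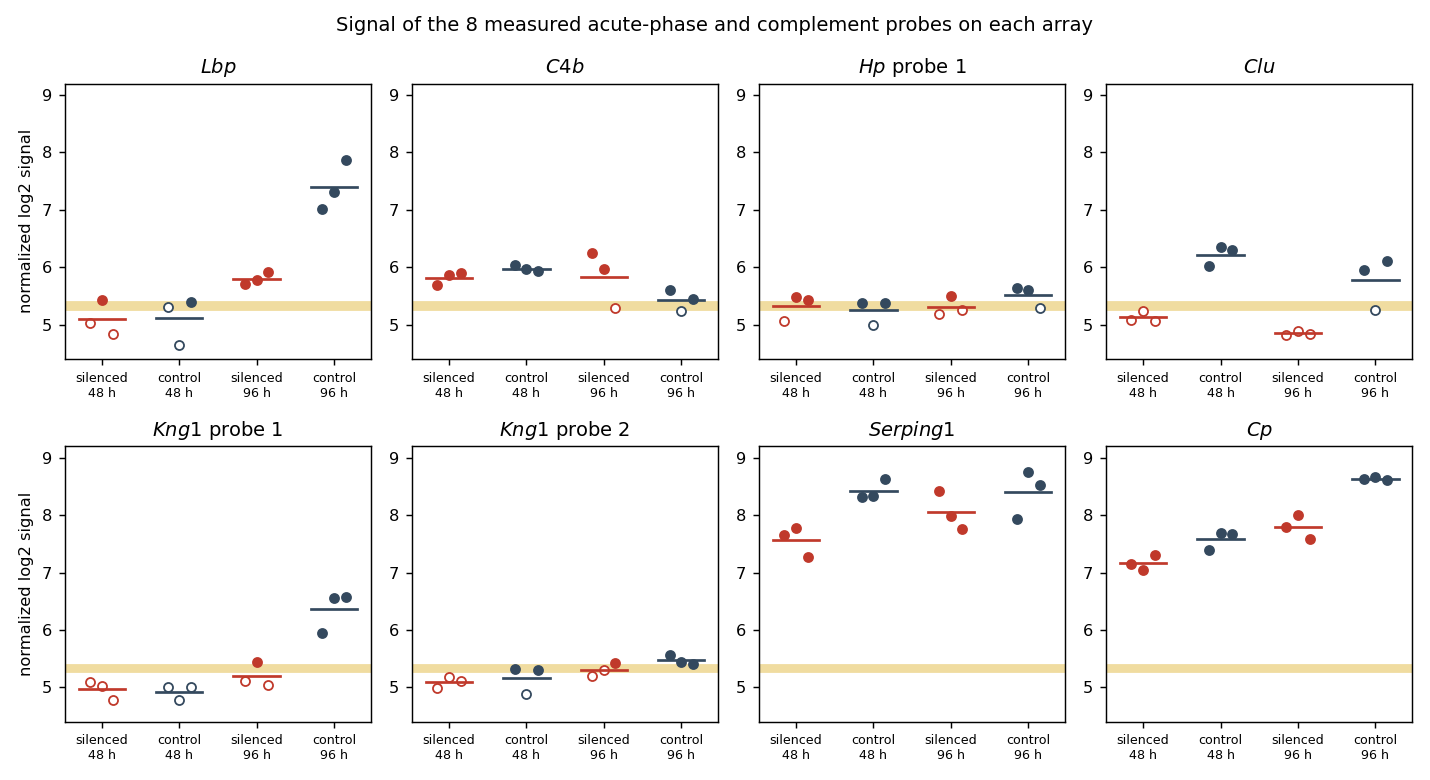
Normalized log2 signal (y axis) of each of the 8 kept probes on the 12 arrays, by group (x axis). Each point is 1 array, filled where the probe was detected and open where it was not, short lines are group means, and the shaded band spans the lowest detected signal per array (5.26 to 5.39). *Lbp* stands clear of the band only in the 96 h groups, *Kng1* probe 1 only in control cells at 96 h, *Clu* only in control cells, and *Serping1* and *Cp* on every array.

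*Lbp* (chromosome 2) encodes lipopolysaccharide-binding protein, which carries lipopolysaccharide to CD14 and the TLR4 receptor complex. At 96 h its log2 signal was 5.71, 5.78 and 5.91 in silenced cells, against 7.02, 7.32 and 7.86 in control cells. Both groups were detected on all 3 arrays, and the highest silenced array lay well under the lowest control array. The means were 5.80 ± 0.10 in silenced cells, against 7.40 ± 0.43 in control cells (SD, n = 3 arrays each), a log2 difference of -1.60, or 3.03-fold lower. At 48 h the signal was 5.02, 5.43 and 4.84 in silenced cells and 5.30, 4.65 and 5.39 in control cells. Only 1 of 3 arrays was above background in each group, and the groups overlapped, with means of 5.10 ± 0.30 and 5.11 ± 0.40 in silenced and control cells.

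The signal of *Lbp* was thus higher at 96 h than at 48 h under both treatments. In silenced cells the 96 h mean exceeded the 48 h mean by 0.70, and in control cells by 2.28, without overlap in either case. These differences are read against 48 h arrays of which 2 of 3 per treatment were at background, so no fold is given. The order of the 4 groups was control cells at 96 h, silenced cells at 96 h, and then the 2 groups at 48 h, which did not differ beyond their spread. The change with time averaged over both treatments was tested, since this contrast does not compare silenced with control cells. It is still not free of the choice of genes for a probe near background at 48 h, such as that of *Lbp*. A lower signal in silenced cells at 96 h needs a control signal above background there. *Lbp* rose by 1.49 (SE 0.16, limma adjusted p = 1.07e-05), and the call held without any 1 of the 12 arrays (1.38 to 1.59). The filter kept this probe mostly through its 96 h arrays, so these repeated passes are no added support for a rise. The size of the silencing difference at 96 h depends on the processing. It was -1.06 with no background correction and -1.18 with a larger offset. In the authors' processed values, whose exact transformation is not stated, it was -0.30. With single arrays left out the difference ranged from -1.79 to -1.37.

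*Kng1* (chromosome 16) encodes kininogen, the precursor of bradykinin and a cofactor of contact activation, and has 3 probes that did not behave alike. Probe 1 read 5.10, 5.44 and 5.04 in silenced cells at 96 h, against 5.95, 6.56 and 6.58 in control cells. All control arrays but only 1 silenced array were above background, and the groups did not overlap (5.19 ± 0.21 in silenced and 6.37 ± 0.36 in control cells, a difference of -1.17, read partly against background). At 48 h the probe was at background in both groups, at 4.77 to 5.10 in silenced and 4.78 to 5.00 in control cells, so no fold is given. In control cells it was at least 2.09-fold higher at 96 h than at 48 h, a bound set by the background, while in silenced cells the 96 h mean exceeded the 48 h mean by 0.23 with overlap. Over both treatments its 96 h mean exceeded the 48 h mean by 0.83 (SE 0.12). All 4 arrays that detected the probe were at 96 h, so it was kept through that time alone and the filter favoured a rise. In the fit of all probes with no filter the change still passed (limma adjusted p = 0.000344).

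Probe 2 of *Kng1* stayed near background. It read 5.19, 5.31 and 5.42 in silenced cells and 5.56, 5.44 and 5.41 in control cells at 96 h, overlapping, with a difference of -0.16. Its rise with time was 0.26 (SE 0.08, limma adjusted p = 0.0215). That call was lost without silenced 48 h replicate 1 (0.24, adjusted p = 0.0507), without silenced 96 h replicate 3 (0.23, adjusted p = 0.0502) and without control 96 h replicate 1 (0.24, adjusted p = 0.0522), in limma's test. It was also lost with no background correction (adjusted p = 0.0524), with the larger offset (0.0599) and in the authors' processed values (0.109). Probe 3 was detected on no array, at raw intensities of 49.3 to 64.4. The 96 h difference of *Kng1* therefore rests on probe 1, where it was -0.65 with no background correction, -0.73 with the larger offset and -0.14 in the authors' processed values.

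*Cp* (chromosome 3) encodes ceruloplasmin, the copper-carrying ferroxidase that loads iron released from cells onto transferrin, and was detected on all 12 arrays. At 48 h its log2 signal was 7.15, 7.04 and 7.31 in silenced cells, against 7.38, 7.69 and 7.68 in control cells. At 96 h it was 7.79, 8.0 and 7.58 in silenced cells, against 8.62, 8.67 and 8.61 in control cells. The silenced arrays lay below the control arrays at both times, and the gap was wider at 96 h. The difference was -0.41 at 48 h (7.17 ± 0.14 in silenced and 7.58 ± 0.17 in control cells, 1.33-fold) and -0.84 at 96 h (7.79 ± 0.21 in silenced and 8.63 ± 0.03 in control cells, 1.79-fold). Between 48 h and 96 h the mean was higher by 0.62 in silenced cells (1.54-fold) and by 1.05 in control cells (2.07-fold). The mean of silenced cells at 96 h thus came close to that of control cells at 48 h, and those 2 groups overlapped. Averaged over both treatments, *Cp* rose with time by 0.84 (SE 0.08, limma adjusted p = 6.63e-06), and this held without any 1 array (0.78 to 0.89). In the authors' processed values the silencing differences were -0.12 at 48 h and -0.38 at 96 h.

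RefSeq promoter sequence (GRCm38.p6) was matched by symbol for 4 of the 10 genes (*Cp*, *Saa3*, *Lcn2* and *C3*), at 5 start sites. *Cp* is the only one of them above background here. Shown are the 250 bases before its second RefSeq start site, at chr3:19956999-19957248 on the + strand, as a description of sequence only. Capitals mark a match, read on the other strand, to TTGCNNAA, the letters of a C/EBP site.

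Cp, start site 2: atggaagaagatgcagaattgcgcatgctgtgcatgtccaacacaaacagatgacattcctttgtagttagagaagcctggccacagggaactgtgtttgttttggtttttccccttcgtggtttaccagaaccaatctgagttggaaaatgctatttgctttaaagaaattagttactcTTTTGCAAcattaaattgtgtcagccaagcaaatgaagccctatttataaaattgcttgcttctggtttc

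The match begins at position -70 from the start site. Letters of an NF-kB site (GGG and CC with 5 bases between them, either strand) matched once, at position -146, whereas GCTCGC, a form of the ZBED6 consensus, and TTCNNNGAA, the letters of a STAT site, did not match in this window. The first *Cp* start site, whose window overlaps this one, held none of the 4 motifs. TTGCNNAA also matched before *Lcn2* (-216), *Saa3* (-99) and *C3* (-45), so the match does not set *Cp* apart. Of these, *Lcn2* and *Saa3* were at background here and *C3* has no probe. Of 32851 RefSeq promoter windows of the same length, searched on both strands, 9.56% held TTGCNNAA, 45.8% the NF-kB letters, 11.4% GCTCGC and 7.02% TTCNNNGAA. A match of letters is a description and not a site of binding.

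*Serping1* (chromosome 2) encodes the C1 inhibitor, which blocks the first proteases of the classical complement pathway and also kallikrein and factor XII of the kinin system. It was detected on all 12 arrays. At 48 h it read 7.65, 7.77 and 7.28 in silenced cells, against 8.31, 8.34 and 8.64 in control cells. The groups did not overlap, with means of 7.57 ± 0.26 in silenced and 8.43 ± 0.18 in control cells, a difference of -0.86 or 1.82-fold. At 96 h it read 8.42, 7.99 and 7.76 in silenced cells, against 7.92, 8.76 and 8.52 in control cells. Here the highest silenced array lay above the lowest control array, and the difference was -0.35 (8.05 ± 0.33 in silenced and 8.40 ± 0.43 in control cells). With single arrays left out it ranged from -0.58 (without control replicate 1) to -0.17 (without control replicate 2), and it was -0.53 and -0.20 without silenced replicates 1 and 3. In the authors' processed values the 48 h difference was -0.35. The 96 h mean exceeded the 48 h mean by 0.49 in silenced cells and differed from it by -0.03 in control cells. The change with time over both treatments, 0.23 (SE 0.15), did not pass (limma adjusted p = 0.242).

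*Clu* (chromosome 14) encodes clusterin, a secreted chaperone that also binds the terminal complement complex. At 48 h its signal was 5.08, 5.23 and 5.07 in silenced cells, against 6.02, 6.35 and 6.30 in control cells. At 96 h it was 4.83, 4.89 and 4.83 in silenced cells, against 5.94, 5.26 and 6.11 in control cells. No silenced array was above background at either time, while 3 control arrays were at 48 h and 2 at 96 h. Measured means were 5.13 ± 0.09 in silenced and 6.22 ± 0.18 in control cells at 48 h, and 4.85 ± 0.04 in silenced and 5.77 ± 0.45 in control cells at 96 h. Against the lowest detected signal, *Clu* was at least 1.79-fold lower in silenced cells at 48 h and at least 1.37-fold lower at 96 h. These bounds hold only for the background correction and offset used here. The differences at 48 h and 96 h shrank to -0.59 and -0.52 with no background correction. With the larger offset they were -0.66 and -0.51. The lowest control array at 96 h, replicate 2 at 5.26, was itself not detected. Over both treatments *Clu* fell with time by 0.36 (SE 0.12, limma adjusted p = 0.0288), a contrast in which the silenced arrays were at background. In limma's test this call was lost without control 48 h replicate 2 (-0.33, adjusted p = 0.064) or 3 (-0.34, adjusted p = 0.0604), silenced 48 h replicate 2 (-0.34, adjusted p = 0.0586), or silenced 96 h replicate 1 (-0.36, adjusted p = 0.0518) or 3 (-0.36, adjusted p = 0.0514). In the authors' processed values *Clu* differed by -0.12 at 48 h and -0.10 at 96 h between silenced and control cells.

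*C4b* (chromosome 17) encodes complement component C4, which forms part of the C3 convertase of the classical and lectin pathways. Mice carry a nearly identical copy, *C4a*, so the source of this signal is uncertain. At 48 h it read 5.69, 5.86 and 5.90 in silenced cells, against 6.04, 5.96 and 5.93 in control cells. The groups did not overlap, but the difference of -0.16 was small and shrank to -0.02 in the authors' processed values and to -0.10 without silenced replicate 1. At 96 h it read 6.26, 5.96 and 5.29 in silenced cells, against 5.60, 5.24 and 5.45 in control cells, which overlapped (difference 0.41, 2 of 3 arrays detected in each group). That difference was 0.20 without silenced replicate 1 and 0.68 without silenced replicate 3. Control cells at 96 h lay below control cells at 48 h by 0.55 without overlap, while the 2 means of silenced cells differed by 0.02. The change with time over both treatments was -0.27 (SE 0.13, limma adjusted p = 0.124), and without silenced 96 h replicate 1 it was -0.37 and passed (adjusted p = 0.0217).

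*Hp* (chromosome 8) encodes haptoglobin, the plasma scavenger of free haemoglobin, and its probe 1 hovered at the detection limit. At 48 h it read 5.06, 5.47 and 5.43 in silenced cells, against 5.37, 4.99 and 5.38 in control cells. At 96 h it read 5.18, 5.50 and 5.26 in silenced cells, against 5.64, 5.61 and 5.29 in control cells. The groups overlapped at both times, with differences of 0.07 at 48 h and -0.20 at 96 h. The change with time was 0.13 (SE 0.11, limma adjusted p = 0.353). The other 2 *Hp* probes were detected on no array, at raw intensities of 65.2 to 85.3 and 53.1 to 74.7.

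*Saa3* (chromosome 7) encodes an inducible serum amyloid A, a lipoprotein-borne acute-phase protein. Its raw intensity was 68.3 to 93.9 across the 12 arrays (median 83.2), and it was detected on 1 of 12, a silenced array at 96 h. *Lcn2* (chromosome 2) encodes lipocalin 2, which withholds bacterial siderophores and so limits iron for microbes. Its raw intensity was 48.9 to 59.5, with no detection p below 0.690. Neither gene was above background under either treatment at either time, and the plot of raw intensities shows them beside the dim probes of *Hp* and *Kng1*. With at most 1 array detected, a difference of either gene between groups was not measurable here.

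**Figure D2:**
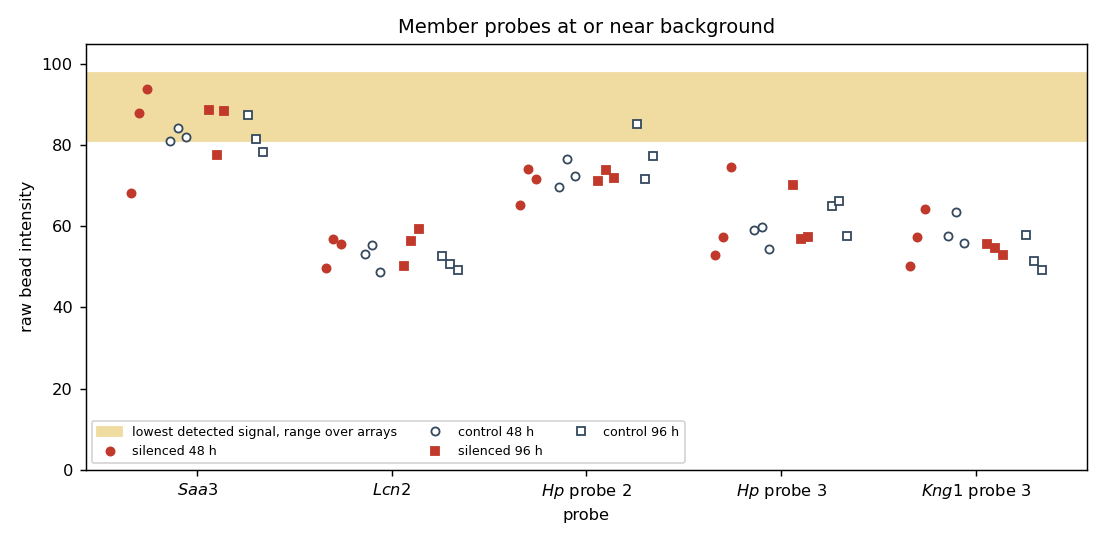
Raw bead intensity (y axis) of the 5 probes that were not kept, on each of the 12 arrays. Filled red symbols are silenced and open symbols control cells (circles 48 h, squares 96 h), and the shaded band spans the lowest detected signal per array (81.0 to 97.9). *Saa3* reaches the band, as does *Hp* probe 2 at its highest value (85.3), whereas *Lcn2*, *Hp* probe 3 and *Kng1* probe 3 lie below it.

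Over the 8 kept probes, silenced arrays all lay below control arrays for 4 probes at 48 h (*Clu*, *Cp*, *Serping1*, *C4b*), where 15.9% of all kept probes did so, and for 4 at 96 h (*Lbp*, *Clu*, *Kng1* probe 1, *Cp*), where 15.6% did. No kept probe of these genes had silenced arrays all above control arrays at either time (16.3% and 15.5% of all kept probes at 48 h and 96 h). The median difference was -0.11 at 48 h (0.00 over all kept probes) and -0.59 at 96 h (0.00 over all). These counts describe the choice of genes, and several probes were kept only through the group in which they were bright. The plot of differences sets both contrasts side by side.

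**Figure D3:**
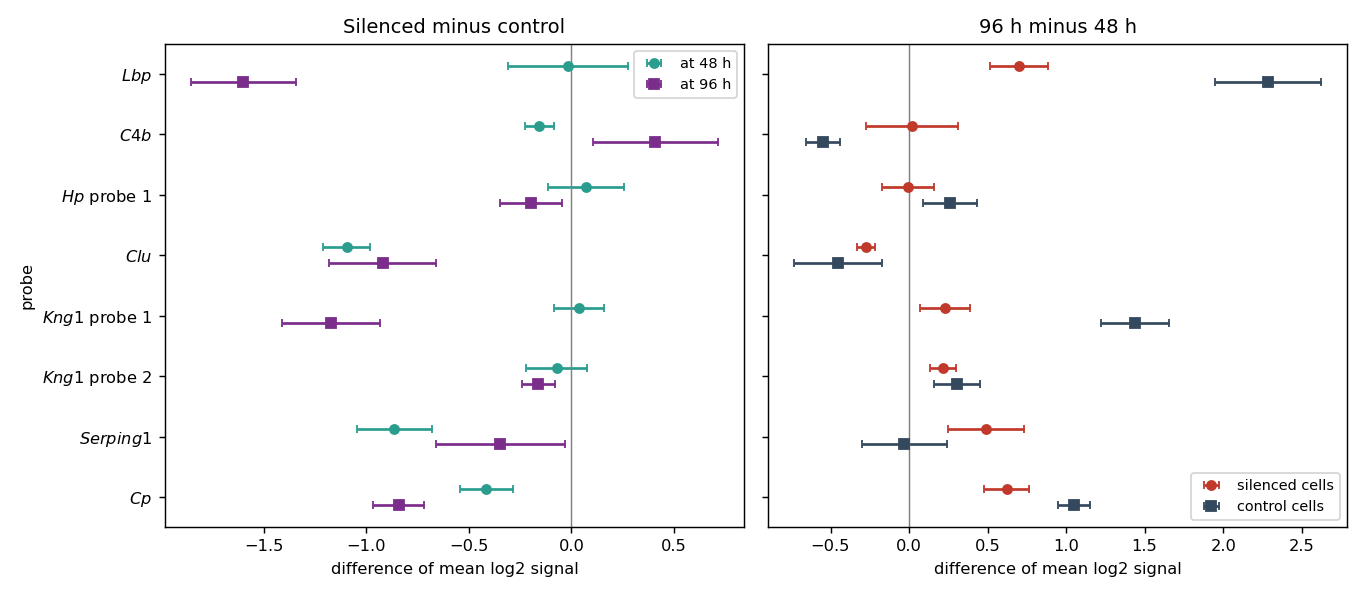
Difference of mean log2 signal for the 8 kept probes, silenced minus control cells (left) and 96 h minus 48 h (right). Bars are standard errors from the SDs of the 2 groups (n = 3 each). At 96 h *Lbp* (-1.60), *Kng1* probe 1 (-1.17), *Cp* (-0.84) and *Clu* (-0.92) lie to the left. Their differences with time in control cells are 2.28, 1.44, 1.05 and -0.45. Both differences use the same control arrays at 96 h. A high signal on those arrays moves a probe left in one panel and right in the other, so the 2 panels are not independent.

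Averaged over both treatments, 5 of the 8 kept probes passed the threshold between 96 h and 48 h. Of these, *Lbp*, *Cp* and both *Kng1* probes rose and *Clu* fell, beside 42.5% of all kept probes (21.4% higher and 21.1% lower; higher calls were 50.3% of all calls, and 65.7% under median scaling). The median change was 0.24 over the 8 probes and 0.01 over all kept probes. *Kng1* probe 1 was kept only through its 96 h arrays and *Lbp* through 6 arrays at 96 h and 2 at 48 h, so the count is no support for a shared rise. With all 25697 probes in the test, *Lbp*, *Cp* and both *Kng1* probes still passed and *Clu* did not (adjusted p = 0.0587). The difference of the silencing effect between the days, 96 h minus 48 h, was -1.58 for *Lbp*, -1.21 for *Kng1* probe 1 and -0.43 for *Cp*, given as descriptions. Of all kept probes 2.93% passed the test of that difference, 1.47% higher and 1.47% lower.

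The profile of *Lbp* over the 12 arrays was closest, among the other probes of these genes, to that of *Kng1* probe 1 (Pearson r = 0.96), then *Cp* (0.87) and *Kng1* probe 2 (0.79). *Hp* probe 1 (0.49), *Serping1* (0.44) and *Clu* (0.11) followed less, and *C4b* ran the other way (-0.65). Among all other kept probes the 5 with the highest r were *Nsg1* (0.94), *Tmem107* probe 1 (0.93), *Knstrn* probe 2 (0.93), *Cd200* probe 2 (0.93) and *Akap7* (0.93). *Nsg1* differed by -0.80 between silenced and control cells at 96 h and by 1.06 between 96 h and 48 h in control cells. The 12 arrays share 4 group means, so these coefficients mostly compare those means and carry no test.

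The wider pathway was read from 7 lists that hold none of the 10 genes. They cover other acute-phase proteins, other complement genes, the kinin and contact system with plasminogen activation, lipopolysaccharide recognition, the cytokines and factors that drive acute-phase genes, NF-kB, and receptors and partners of the 10 proteins. Of 193 listed genes, 168 are on the array and 75 were measured, by 112 kept probes. In limma's test adjusted over all kept probes, 9 of the 112 rose and 9 fell in silenced cells at 48 h, where 6.93% of all kept probes passed (3.31% higher and 3.62% lower). At 96 h 2 rose and 3 fell, where 5.76% passed (2.83% higher and 2.93% lower; higher calls were 49.1% of all calls, and 59.7% under median scaling). Their median difference was -0.01 at 48 h and -0.03 at 96 h, beside 0.00 over all kept probes at each time. Between 48 h and 96 h 27 of the 112 rose and 23 fell, a share of 44.6%, near the 42.5% of all kept probes. With single arrays left out, between 1 (without control replicate 2) and 9 (without silenced replicate 1) listed probes passed at 48 h. The counts were 3 without control replicate 1, 2 without control replicate 3, 2 without silenced replicate 2 and 5 without silenced replicate 3. At 96 h they were 0 (23 at an unadjusted p under 0.05) without control replicate 1, 1 and 2 without control replicates 2 and 3, and 1, 1 and 3 without silenced replicates 1, 2 and 3. Of 17 calls named below at 48 h, that of *Slc40a1* held without any 1 array, and the others reached an adjusted p of 0.0669 (*Tlr2*) to 0.138 (*Tollip*) in at least 1 such refit. None of the 5 at 96 h held throughout, and they reached 0.0783 (*Osmr*) to 0.155 (*Tollip*).

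Along the route that *Lbp* serves, *Tlr2*, a receptor for bacterial lipoproteins, read 7.71, 7.28 and 7.41 in silenced cells at 48 h, against 8.10, 8.33 and 8.19 in control cells. It fell by 0.74 (SE 0.13, adjusted p = 0.0178), and at 96 h the difference was 0.03. *Myd88*, the adaptor shared by most Toll-like receptors, fell by 0.42 at 48 h (adjusted p = 0.0304), as did *Tirap* probe 2 by 0.37 (adjusted p = 0.0439), which encodes the adaptor that brings MyD88 to TLR2 and TLR4. *Tollip* probe 1, which encodes an inhibitor of that signalling, rose by 0.44 at 48 h (adjusted p = 0.0491) and by 0.36 at 96 h (adjusted p = 0.0492). *Cd14*, the co-receptor that takes lipopolysaccharide from LBP, read 5.83, 5.75 and 5.83 in silenced cells at 96 h, against 6.47, 6.14 and 6.49 in control cells, and fell by 0.56 (SE 0.11, adjusted p = 0.0301). Its 48 h difference was -0.45 and did not pass (adjusted p = 0.103). *Tlr4* probe 1 and *Ly96*, the receptor itself and its partner MD-2, were detected on every array and did not pass at either time, nor did *Tollip* probe 2 (0.53) or *Tab1* probe 2 (0.25) at 96 h. Of the 25 kept probes of this list, 1 rose and 3 fell at 48 h, and 1 rose and 1 fell at 96 h. With time 10 rose and 2 fell, 48% of the list beside 42.5% of all kept probes. P-values here and in the following paragraphs on the lists are limma's, adjusted over all kept probes.

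Among cytokine receptors and factors, *Osmr*, the oncostatin M receptor subunit, was the listed gene that fell at both times. It read 6.82, 6.99 and 6.97 in silenced cells at 48 h, against 7.42, 7.52 and 7.43 in control cells, and 8.0, 7.98 and 7.71 in silenced cells at 96 h, against 8.68, 8.60 and 8.44 in control cells. The falls were 0.53 (SE 0.09, adjusted p = 0.0180) and 0.68 (SE 0.11, adjusted p = 0.0186), and with time *Osmr* rose by 1.05 (adjusted p = 2.03e-07), so its 4 group means ran in the same order as those of *Cp*. *Il6st*, the gp130 subunit that pairs with it, rose by 0.57 at 48 h (adjusted p = 0.0310). *Socs3*, a feedback inhibitor of gp130 signalling, fell by 0.44 at 48 h (adjusted p = 0.0405), and *Il1b* was at least 1.29-fold higher in silenced cells at 96 h, where no control array was above background. *Stat3* (3 probes) and *Cebpb*, which encode acute-phase transcription factors, did not pass at either time, with differences between -0.21 and 0.19. *Tyk2*, a kinase of gp130 signalling, differed by -0.27 in probe 1 at 48 h and by 0.42 and 0.33 in probes 2 and 3 at 96 h and did not pass. Of 25 probes, 1 rose and 2 fell at 48 h, and 1 rose and 1 fell at 96 h. With time 9 rose and 4 fell, 52% of the list beside 42.5% of all kept probes.

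In the NF-kB list 2 of 19 probes rose at 48 h and 0 passed at 96 h (5 at an unadjusted p under 0.05, limma). Both were probes of *Ikbkg*, the regulatory subunit of the IkB kinase, at 0.54 and 0.62 (adjusted p = 0.0230 each), whereas its probe 3, detected on 2 of 3 arrays in each group, differed by 0.05. *Nfkbia*, the inhibitor IkB-alpha and a target of NF-kB, differed by -0.36 at 48 h and -0.39 at 96 h and did not pass (adjusted p = 0.0517 and 0.0591). *Rela*, the p65 subunit, differed by -0.16 and 0.05 at 48 h and 96 h. *Nfkbiz* differed by -0.44 at 48 h, and at 96 h *Relb* differed by 0.47, *Ikbkg* probe 1 by 0.32 and *Tank* probe 3 by -0.35, none past the threshold. Over time 4 probes of this list rose and 4 fell, 42.1% of the list beside 42.5% of all kept probes.

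Of the other acute-phase proteins, 25 of the 33 genes on the array had no kept probe. *Serpinf1*, which encodes the serpin PEDF, read 13.42, 13.28 and 13.31 in silenced cells at 48 h, against 13.72, 13.79 and 13.82 in control cells, and fell by 0.44 (SE 0.09, adjusted p = 0.0289). The metallothionein genes *Mt1* and *Mt2* differed by -0.20 and -0.22 at 48 h and by -0.23 and -0.35 at 96 h and did not pass. *Ptx3* probe 2, for a long pentraxin, differed by -0.44 at 48 h without passing, with 1 of 3 silenced arrays above background. *Saa1* was above background on all silenced and no control arrays at 96 h, at least 1.105-fold higher in silenced cells without passing (adjusted p = 0.127). Of 9 probes in this list, 1 fell at 48 h and 0 passed at 96 h (3 at an unadjusted p under 0.05). Of 12 other complement probes, 1 rose and 1 fell at 48 h and 1 fell at 96 h. *Masp2* probe 1, for a protease of the lectin pathway, was at least 1.49-fold lower in silenced cells at 48 h, where no silenced array was above background. *Cd59b* probe 1, for an inhibitor of the membrane attack complex, rose by 0.52 at 48 h (adjusted p = 0.0401). *Cr1l* probe 1, for the rodent complement regulator Crry, fell by 0.46 at 96 h (adjusted p = 0.0312). *C1rl* probe 2, for a C1r-like protease, was not above background on any silenced array at 48 h, and at 96 h, where 1 silenced and 2 control arrays were, it differed by -0.39 without passing.

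In the kinin and plasminogen list 1 of 8 probes rose at 48 h and 0 passed at 96 h (5 at an unadjusted p under 0.05, limma), with a median difference of -0.31 at 96 h. *Plau*, the urokinase gene, rose by 0.59 at 48 h (adjusted p = 0.0241), and *Kng2* probe 1, for the second mouse kininogen, differed by 0.32 at 48 h, where 1 of 3 control arrays was above background (adjusted p = 0.155). At 96 h no silenced array was, and the probe was at least 1.38-fold lower in silenced cells without passing (adjusted p = 0.0829). *Plaur*, the urokinase receptor, differed by -0.34 at 48 h (adjusted p = 0.0808) and *Thbd*, thrombomodulin, by 0.30 at 48 h and -0.37 at 96 h (adjusted p = 0.109 and 0.122). *Cpd*, a carboxypeptidase, differed by -0.46 and -0.38 at 96 h in its 2 probes (adjusted p = 0.0823 and 0.111). Among 14 probes of receptors and partners, 3 rose and 2 fell at 48 h and 0 passed at 96 h (3 at an unadjusted p under 0.05). *Slc40a1*, the iron exporter whose iron ceruloplasmin oxidizes, read 9.34, 9.27 and 9.36 in silenced cells at 48 h, against 7.94, 7.95 and 7.85 in control cells, a rise of 1.41 (SE 0.09, adjusted p = 0.000931) that was -0.03 at 96 h. *Lrp1*, a scavenger receptor of protease and inhibitor complexes, fell by 0.56 at 48 h (adjusted p = 0.0313), and both *Tfrc* probes, for the transferrin receptor, rose by 0.44 and 0.43 (adjusted p = 0.0392 and 0.0468). At 96 h *Vldlr*, a lipoprotein receptor, differed by -0.49 and -0.35 in probes 1 and 2 (no silenced array detected probe 4) and *Slc22a17* probe 2, for a lipocalin 2 receptor, by 0.23 (1 of 3 control arrays detected), none past the threshold.

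**Figure D4:**
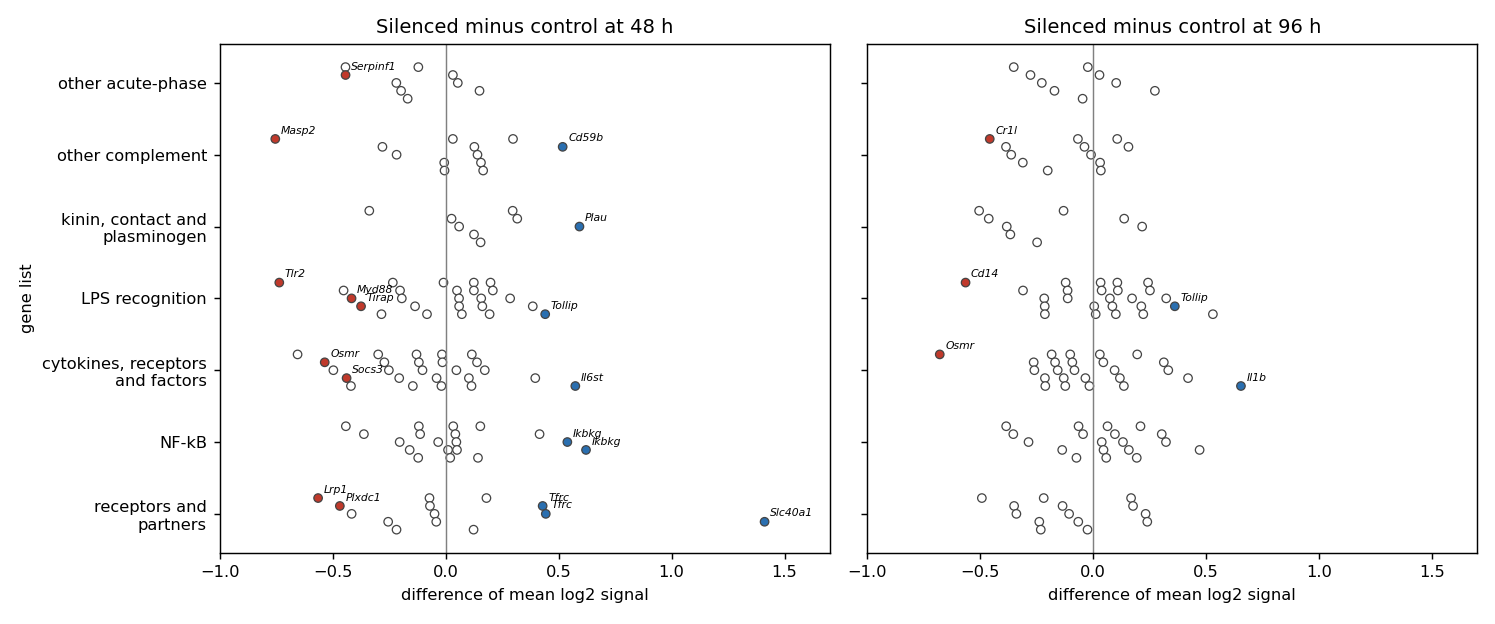
Difference of mean log2 signal, silenced minus control cells (x axis), for the 112 kept probes of the 7 pathway lists (rows) at 48 h (left) and 96 h (right). Each point is 1 probe, and filled points with a gene name passed limma's test (blue higher and red lower in silenced cells). At 48 h 9 probes pass on each side, with *Slc40a1* farthest out (1.41), and at 96 h 2 pass above and 3 below, with *Osmr* lowest (-0.68).

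The cultures carried the markers of muscle and none of liver. Of 11 hepatocyte genes on the array, none had a kept probe, and of 10 macrophage and leukocyte genes 1 did, *Cd14*. All 8 myotube genes and 6 of 7 myoblast genes were measured. The summed linear signal of the myoblast list was 78010 to 78990 in silenced and 80260 to 82090 in control cells at 48 h. At 96 h it was 79580 to 87040 in silenced and 74120 to 78670 in control cells. This sum was lower in silenced cells at 48 h and higher at 96 h without overlap. Such sums weigh the brightest probes most. Of the 8 myoblast probes, 1 rose and 0 fell at 48 h in limma's test, where 6.93% of all kept probes passed. Their median difference at 48 h was 0.02, so the lower sum was not shared by the list. The summed linear signal of the myotube list was 111000 to 120500 in silenced and 98460 to 102000 in control cells at 48 h, and 115200 to 122000 in silenced and 92440 to 101000 in control cells at 96 h, higher in silenced cells at both times. That of the fibroblast and endothelial list (5 of 11 genes measured) was 10090 to 10700 in silenced and 9734 to 10610 in control cells at 48 h, and 6470 to 7147 in silenced and 7635 to 8617 in control cells at 96 h. It was lower in silenced cells at 96 h, as *Lbp*, *Kng1* probe 1 and *Cp* were. The adipocyte list (2 of 8 genes measured) ran from 893.9 to 1004 in silenced and from 585 to 619.7 in control cells at 48 h, and from 1471 to 1886 in silenced and from 1592 to 1913 in control cells at 96 h. The part of these shifts in the values of the acute-phase and complement genes was not tested.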

How the data were processed

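Illumina MouseRef-8 v2 BeadChips were probed with total RNA of 12 C2C12 cultures. The authors deposited raw bead intensity per probe, neither background-corrected nor normalized, and per the file headers a detection p-value, a rank among the control beads with a resolution of 1 in 798. A second deposited table holds the authors' log2 values after lumi in FlexArray, whose exact transformation and centring are not stated. Their medians were 7.84 to 7.85, and each array's values correlated best with its own log2 raw signal, both less their probe means (0.777 to 0.848, against 0.642 or less with another array). They served as an alternative only.

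Intensities were background corrected with neqc (limma 3.58.1, R 4.3.3, offset 16), quantile normalized and log2 transformed. A probe was kept, on its own, if at least 3 of 12 arrays had a detection p-value under 0.05. Of 25697 probes, 23978 had 1 gene symbol, 0 several and 1719 none. A lookup in RefSeq left 11 gene IDs unmatched and altered 0 symbols. Chromosomes are those of RefSeq GRCm38.p6. All value columns were mapped to a sample, and 0 pairs of arrays held the same values.

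Silencing of listed genes was tested on the 6 arrays of a day, and time (mean of both 96 h groups minus mean of both 48 h groups) and the difference between days in 1 fit of 4 group means over 12 arrays, with limma's moderated test and Benjamini-Hochberg adjustment over 13095 kept probes (threshold 0.05). Where no array of a group was above background, the fold is a bound, taken from the mean, over that group's arrays, of the lowest detected signal or the probe's own, whichever was higher. Such a bound holds only for the background correction and offset used here. The members, the lists and the tests were chosen with earlier results of these data known. Named are all probes of the 10 genes, up to 4 probes per list and day with the smallest p, the 5 probes most like *Lbp*, and listed genes whose silencing effect differed between days; the *Stat3*, *Cebpb*, *Tlr4*, *Ly96* and *Rela* probes were added after their values were seen. Slide was not tested as a block, since no source used here names it. Alternatives were median scaling, the authors' values, an offset of 50, no background correction, a stricter filter (detection p under 0.01 on at least 6 arrays), no filter, the replicate number as a block, all 12 arrays in 1 fit, and leaving out each array.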

Additional observations from a re-analysis of the deposited data

Results flagged for a closer look

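No probe of the 10 genes was singled out by a test, since their silencing differences were not tested. Among the listed genes, 5 probes had a silencing difference unlike at 48 h and 96 h by limma's test of that difference (96 h minus 48 h, adjusted over all kept probes, of which 2.93% passed). For *Slc40a1* it was -1.44 (adjusted p = 0.000255), from 1.41 at 48 h and -0.03 at 96 h, and it held in each refit without 1 array. For *Cd59b* probe 1 it was -0.88 (adjusted p = 0.0200), with 0.52 at 48 h and -0.36 at 96 h, and it held in 10 of 12 refits without 1 array. For *Cr1l* probe 2 it was -0.61 (adjusted p = 0.0478), with 0.30 at 48 h and -0.31 at 96 h, and it was lost in each of the 12 refits without 1 array, with the authors' values, under median scaling, with no filter and with the replicate block. For *Tlr2* it was 0.77 (adjusted p = 0.0459), with -0.74 at 48 h and 0.03 at 96 h, and it held in 2 of 12 such refits and was lost under median scaling, with no filter and with the replicate block. For *Masp2* probe 1 it was 0.91 (adjusted p = 0.0310), with -0.75 at 48 h, where silenced cells were at background, and 0.16 at 96 h, and it held in 4 of 12 such refits and was lost with the authors' values.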

How the results depend on the processing

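Replicate numbers did not pair the samples (same-numbered pairs correlated at -0.17 to 0.18, 3 of 18 above 0.1). With the replicate block 11 listed probes passed at 48 h (18 without), 3 at 96 h (5 without) and 3 for the difference between days (5 without). Over all 13095 kept probes, calls with the block were 567 at 48 h (908 without), 353 at 96 h (754 without) and 224 between days (384 without). Listed calls at 48 h were 9 under median scaling, where 555 of all kept probes passed. At 96 h they were 11 with no background correction, 11 with offset 50, 8 with the stricter filter and 10 with all 12 arrays in 1 fit. Calls over all probes in these settings were 1482, 1412, 1018 (of 10839 probes) and 957. Listed calls between days were 8 with the authors' values, 9 with no background correction, 9 with offset 50, 3 under median scaling and 8 with the stricter filter. Over all probes they were 778, 820, 771, 135 and 643. The listed counts thus moved in the same direction as the calls over all probes and say nothing particular about the lists. Calls of the acute-phase and complement probes over time, 5 in all, were 3 with the authors' values and 1 with the stricter filter, which keeps 3 of the 8 probes. Probes lower in silenced cells without overlap, 4 at each time, were 2 at 48 h under median scaling and 1 at 96 h with the stricter filter. Leaving out single arrays gave 1 to 9 listed calls at 48 h, 0 to 3 at 96 h, 1 to 4 between days and 44 to 51 over time (50 in all), 3 to 5 calls of the 8 probes over time, and 4 to 5 (48 h) and 4 to 6 (96 h) probes without overlap. *Lbp*, *Cp* and *Kng1* probe 1 passed over time in each refit without 1 array and in each other setting that kept them. Those refits used the same filter, which *Kng1* probe 1 passed only through 96 h arrays and *Lbp* mostly through them. For these 2 probes the repeated passes are therefore no added support for a rise. Median scaling raised the share of higher calls at 96 h to 59.7% (49.1% as reported, 40.5% with the replicate block) and over time to 65.7% (50.3% as reported). Values near background have no firm order. The authors' processed values gave smaller differences both for such probes and for *Cp* and *Serping1*, which were detected on all 12 arrays. At 96 h *Cp* differed by -0.38 there and by -0.84 as reported, and at 48 h *Serping1* by -0.35 and -0.86.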
